A study of Mus musculus with 25 samples.

Results

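H3K27me3, the trimethylated form of histone H3 lysine 27, was mapped by chromatin immunoprecipitation and sequencing (ChIP-seq) in regenerating mouse myofibers. The peaks described here lie inside genes rather than at their promoters. They were chosen by 3 rules applied to the 12 deposited H3K27me3 peak lists: a position on chromosomes 1 to 19, an annotation that begins with Exon or Intron, and a width under 3000 bp. Of 55242 peaks in the 24 lists of both marks, 30979 were autosomal H3K27me3 peaks and 4912 met the rules (15.9% of the autosomal H3K27me3 peaks), with 4210 in introns and 702 in exons. They were assigned to 1381 genes.

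All groups carried the same Pax7-Cre(ERT2) driver, whose recombination is restricted to muscle stem cells, together with a mito-Dendra2 reporter of their progeny. They received tamoxifen at 75 mg/kg on 5 days, and 2 days later 50 µL of 1.2% BaCl2 into the tibialis anterior, and Dendra2+ myofibers were dissected 14 days post injury (dpi). Each of the 4 genotypes had 3 libraries per mark: wild-type, mfn2-/- (no mitofusin 2, a mitochondrial fusion protein), vhl-/- (no VHL, which targets HIF1α for degradation), and HIF1dPA (a HIF1α with prolines changed to alanines that VHL does not recognize). The study calls the replicates biological. The labels do not give the animals behind each library, their age or their sex, and p-values measure the spread between these libraries. In such bulk tissue, fewer nuclei with a mark and less mark per nucleus cannot be told apart. The lists hold no read totals, so depth is unknown and a peak that is absent is one that was not called.

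Polycomb repressive complex 2 writes H3K27me3, mostly at CpG-rich promoters of developmental genes that are silent in a given cell. The mark can spread from a promoter over the gene body, and introns also hold alternative promoters, enhancers and noncoding transcripts that carry it on their own. The score in the lists is 10 times the negative log10 of the p-value from the peak caller, and begins at 50.

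RefSeq start sites offered a view of the DNA below some of these peaks. Of 31396 autosomal RefSeq promoter windows of 300 bases (250 before the start and 50 after it, GRCm38.p6), 28 windows of 25 genes overlapped an exon or intron peak. Of the 4912 peaks, 49 touched a window (0.998%), compared with 14.7% of narrow promoter peaks and 1.45% of narrow intergenic peaks. The authors' promoter class takes peaks within 3 kb of an annotated start, so the choice of class largely sets these shares. The 28 windows held a median of 8.5 CpG dinucleotides, next to 7 for all autosomal windows and 16 for the 1206 windows under a narrow promoter peak. The sequences below are the 4 windows overlapped in the most lists and, last, the window richest in CpG among those overlapped in at least 3 lists. They are shown because they are start sites inside other genes or noncoding RNA genes that the peaks reached. Each is read 5′ to 3′ on the strand of its gene, with CpG in capitals.
9030622O22Rik: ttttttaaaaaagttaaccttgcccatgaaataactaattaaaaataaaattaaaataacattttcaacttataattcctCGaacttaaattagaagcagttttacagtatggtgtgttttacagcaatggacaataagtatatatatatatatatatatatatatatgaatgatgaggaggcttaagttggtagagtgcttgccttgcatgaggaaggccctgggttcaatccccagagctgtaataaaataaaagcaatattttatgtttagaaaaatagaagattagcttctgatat
Gm38960: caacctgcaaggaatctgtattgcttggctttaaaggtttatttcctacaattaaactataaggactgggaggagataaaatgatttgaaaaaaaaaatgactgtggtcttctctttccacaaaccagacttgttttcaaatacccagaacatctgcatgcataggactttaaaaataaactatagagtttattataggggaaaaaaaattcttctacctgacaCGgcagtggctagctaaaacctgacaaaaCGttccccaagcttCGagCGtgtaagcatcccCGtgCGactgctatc
2810405F15Rik: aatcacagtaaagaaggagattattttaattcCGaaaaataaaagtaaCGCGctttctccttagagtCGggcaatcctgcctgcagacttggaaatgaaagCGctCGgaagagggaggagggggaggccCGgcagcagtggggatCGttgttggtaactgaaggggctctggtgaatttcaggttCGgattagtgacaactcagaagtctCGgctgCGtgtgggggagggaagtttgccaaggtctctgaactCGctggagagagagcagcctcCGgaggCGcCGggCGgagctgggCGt
Gm40832: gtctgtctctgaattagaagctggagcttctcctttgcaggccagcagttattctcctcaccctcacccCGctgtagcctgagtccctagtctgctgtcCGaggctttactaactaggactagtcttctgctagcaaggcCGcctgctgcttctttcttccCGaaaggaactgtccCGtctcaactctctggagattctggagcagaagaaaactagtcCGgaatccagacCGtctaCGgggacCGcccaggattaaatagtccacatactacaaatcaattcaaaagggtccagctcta
A930033C23Rik: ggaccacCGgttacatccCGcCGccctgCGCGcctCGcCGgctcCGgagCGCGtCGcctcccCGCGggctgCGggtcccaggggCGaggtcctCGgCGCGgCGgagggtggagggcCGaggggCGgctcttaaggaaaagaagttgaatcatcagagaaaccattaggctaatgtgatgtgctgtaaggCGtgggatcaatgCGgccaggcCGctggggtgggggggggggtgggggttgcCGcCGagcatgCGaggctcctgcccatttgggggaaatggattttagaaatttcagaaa

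These windows differed widely in CpG. The first, chr2:148031939-148032238 (minus strand), had 1 CpG and a GC content of 28.0%, yet it was overlapped in 7 lists, with scores from 75.9 to 247, and covered whole in 6. It belongs to the noncoding 9030622O22Rik gene, the neighbour of Foxa2, an endoderm and floor plate regulator. Gm38960 at chr11:96540047-96540346 (minus strand) lies in an intron of Skap1 and had 6 CpG and peaks in 5 lists. The 2810405F15Rik window at chr2:116076047-116076346 (minus strand), inside an intron of the noncoding G630016G05Rik next to the homeobox gene Meis2, had 17 CpG, a number that 32.0% of all autosomal windows reach, and peaks in 4 lists. Gm40832 at chr13:23286697-23286996 (minus strand), inside 4930557F10Rik, had 9 CpG and 4 lists. The A930033C23Rik window at chr5:35399506-35399805 (minus strand), inside the intron of the homeobox gene Hmx1, had 27 CpG, reached by 16.0% of windows, and was overlapped in 3 lists (wild-type 2 and 3 and vhl-/- 1). No exon or intron peak overlapped a RefSeq miRNA hairpin, whereas 33 narrow promoter peaks did.

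The number of exon and intron peaks was first compared between genotypes. Wild-type lists held 631, 572 and 542, mfn2-/- lists 371, 344 and 404, vhl-/- lists 619, 629 and 548, and HIF1dPA lists 88, 87 and 77. All HIF1dPA and all mfn2-/- lists were below every wild-type list, while the vhl-/- and wild-type lists overlapped. On the log2 scale the genotypes differed (exact permutation over the libraries, p = 0.000519, adjusted over the 9 planned tests p = 0.00117). The ratio of geometric means to wild-type was 0.144 for HIF1dPA and 0.641 for mfn2-/- (exact p = 0.1 each, the smallest that 3 against 3 allows) and 1.03 for vhl-/- (exact p = 0.8). The mfn2-/- lists also held 1016 to 1105 H3K27me3 peaks on the X chromosome, next to 5 to 13 in every other list. The part of this in the autosomal counts was not tested. The HIF1dPA lists were also short as a whole and held 474 to 496 autosomal peaks, compared with 2342 to 4023 in the other genotypes.

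**Figure D1:**
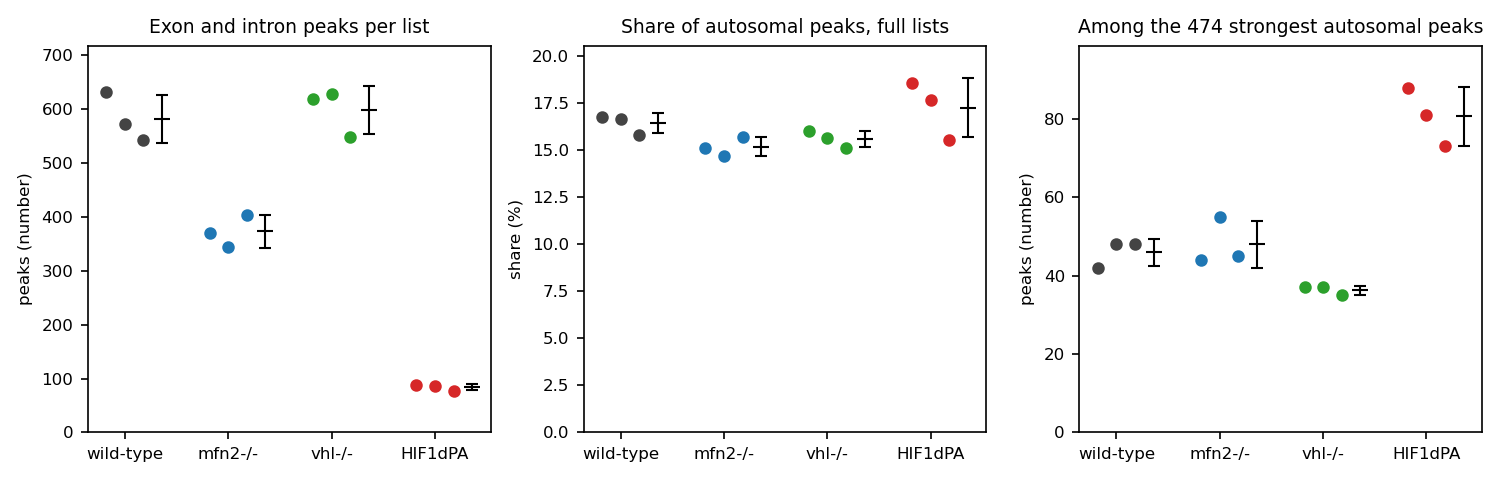
Points are the 12 libraries, and bars at their right the mean ± SD of the 3 libraries of a genotype. The left panel gives the number of exon and intron peaks per list, the middle panel their share of the autosomal peaks of the list in percent, and the right panel their number among the 474 strongest autosomal peaks. HIF1dPA lies lowest at the left (77 to 88) and highest at the right (73 to 88).

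As a share of autosomal peaks, the exon and intron class took up 16.4% ± 0.522 of the wild-type, 15.2% ± 0.506 of the mfn2-/-, 15.6% ± 0.438 of the vhl-/- and 17.2% ± 1.56 of the HIF1dPA lists (SD, n = 3), which did not pass the threshold across genotypes (exact p = 0.0686, adjusted p = 0.0686). The picture differed among strong peaks. When the 474 strongest autosomal peaks of each library were kept, 88, 81 and 73 exon and intron peaks were left in HIF1dPA, but 42, 48 and 48 in wild-type, 44, 55 and 45 in mfn2-/- and 37, 37 and 35 in vhl-/- lists, and the ratio of HIF1dPA to wild-type turned to 1.75 (exact p = 0.1; across genotypes, exact p = 0.000649 for the share). These 474 peaks are nearly the whole list in HIF1dPA and the top of it elsewhere. At a score of at least 100, HIF1dPA lists kept 16 to 25 autosomal peaks, and the class was a smaller share of them than of wild-type peaks, by -7.07 percentage points (exact p = 0.1; p = 0.0011 across genotypes), a value that rests on 2 HIF1dPA peaks, both at Chl1.

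The peaks were narrow and weak. Their width had quartiles of 596 and 880 bp around a median of 684 bp, from 335 to 2911 bp, and their score a median of 58.9 with a maximum of 994. Only 10.97% reached a score of 100. Median width per list was 600 to 612 bp in HIF1dPA and 636 to 731 bp in the other genotypes, and median score 53.7 to 55.3 and 58.0 to 60.9. Width and score are values that chose the peaks, and they are given without a test. Just inside the width limit were a Tbx20 intron 3 peak of 2911 bp and a 4930557F10Rik intron peak of 2853 bp, both in vhl-/- lists. Just outside it were a Sim1 intron 8 peak of 3035 bp in wild-type 1 and a Gata4 intron peak of 3242 bp in wild-type 2, and 7 exon or intron peaks in all were left out for their width.

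Within genes, intron 1 and the last exon held many of the peaks. Of the 4210 intron peaks, 1936 lay in intron 1 (46.0%), and 409 lay in the sole intron of the annotated transcript (9.71%). Of the 702 exon peaks, 249 lay in the last exon (35.5%) and 2 in the first. The authors' annotation gives peaks near a start to the promoter class. In 97.96% of cases the annotated transcript belonged to the gene to which the peak had been assigned. The protein-coding host genes were long, with a median of 81.3 kb for 1156 genes found in RefSeq next to 17.5 kb for all 20665 autosomal protein-coding genes. The part of gene length in which genes held a peak was not tested.

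HIF1dPA lists held lower shares of exon and intron 1 peaks. The exon share was 7.95, 6.90 and 9.09% in HIF1dPA lists, compared with 14.4, 12.2 and 15.5% in wild-type, 14.8, 14.2 and 15.8% in mfn2-/- and 16.3, 14.3 and 14.2% in vhl-/- lists. Each HIF1dPA list lay below all 9 others (exact p = 0.0111 across genotypes, adjusted p = 0.0167), with a mean difference from wild-type of -6.07 points (exact p = 0.1). Intron 1 held 39.5, 27.2 and 37.1% of the HIF1dPA intron peaks, compared with 43.4 to 50.7% in wild-type, 44.6 to 47.9% in mfn2-/- and 46.6 to 47.5% in vhl-/- lists (exact p = 0.0157, adjusted p = 0.0202). Equal numbers of strongest peaks take nearly the whole HIF1dPA list and only the top of the others. There the HIF1dPA differences were -14.7 points for exons and -21.4 points for intron 1 (exact p = 0.1 each), against -12.2 points for intron 1 in full lists. The shares in full lists rest on 6 or 7 exon peaks and 70 to 81 intron peaks in each HIF1dPA list. The mfn2-/- and vhl-/- means differed from wild-type by less than 1 point in both measures (exact p from 0.5 to 0.8). Among equal numbers of strongest peaks the mfn2-/- difference was 11.3 points for intron 1 (exact p = 0.3) and -3.08 points for exons (exact p = 0.6). The shorter HIF1dPA lists and lower scores move with these shares, and their part was not tested.

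**Figure D2:**
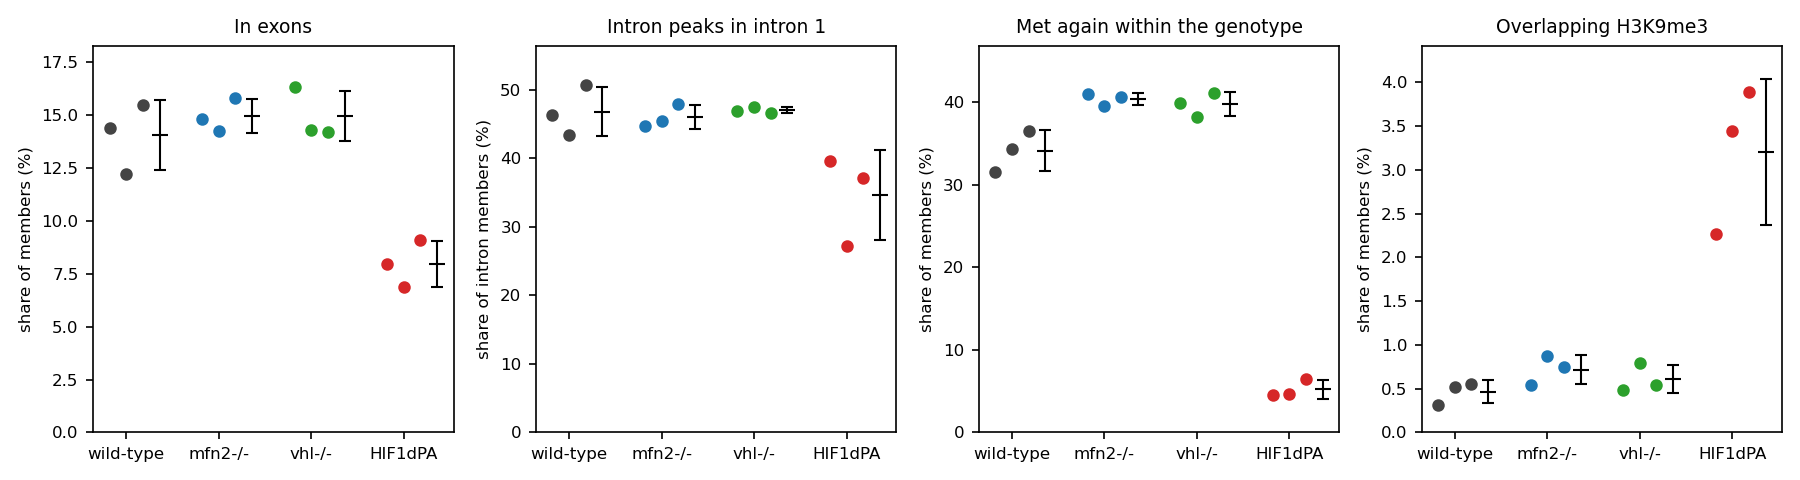
Each point is 1 library, and bars give the mean ± SD of 3 libraries. The panels show, in percent, the share of members in exons, the share of intron members in intron 1, the share overlapping a peak of another library of the same genotype, and the share overlapping an H3K9me3 peak of the same genotype. HIF1dPA is lowest in the first 3 panels and highest in the last, at 2.27 to 3.90%.

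Recurrence was then measured as the share of a library's exon and intron peaks that overlapped any H3K27me3 peak of the other 2 libraries of its genotype by at least 1 bp. Wild-type lists gave 31.5, 34.3 and 36.5%, mfn2-/- lists 41.0, 39.5 and 40.6%, vhl-/- lists 39.9, 38.2 and 41.1%, and HIF1dPA lists 4.55, 4.60 and 6.49%. The groups differed (exact p = 0.000455, adjusted p = 0.00117), and all mfn2-/- and vhl-/- lists lay above, and all HIF1dPA lists below, every wild-type list (exact p = 0.1 for each pair). With equal numbers of strongest peaks wild-type overlapped both mfn2-/- and vhl-/- (exact p = 0.2 each). HIF1dPA peaks met longer lists more often: 32.7% ± 4.28 of them overlapped a wild-type peak and 30.8% ± 6.39 a vhl-/- peak (SD, n = 3), although 5.21% ± 1.11 met a peak of the other HIF1dPA lists. In all, 100 of the 252 HIF1dPA peaks (39.7%) lay on a peak of another genotype. Conversely, 7.15% ± 0.317 of wild-type peaks overlapped a HIF1dPA peak and 41.8% ± 0.352 a vhl-/- peak.

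Outside HIF1dPA, strong peaks, peaks in exons or intron 1, and peaks near developmental regulators were met again more often than the others. In wild-type lists 21.9% ± 2.66 of peaks with a score under 60 were met again, 40.0% ± 1.28 of those from 60 to under 100 and 74.4% ± 6.13 of those at 100 or more (SD, n = 3). Over exons the share was 42.7% ± 2.62, over intron 1 it was 38.3% ± 3.03, and over later introns 27.8% ± 2.48. Of wild-type peaks within 20 kb of one of the listed developmental transcription factor genes, 58.4% ± 1.90 were met again, and of the others 27.9% ± 2.30. The vhl-/- lists gave 67.3% ± 2.20 and 31.6% ± 1.49 for the same split, and mfn2-/- lists 64.4% ± 2.75 and 29.5% ± 0.935. In HIF1dPA lists the order of the means was the same except for intron 1, on few peaks. Intron 1 peaks were met again there in 2.80% ± 2.45 of cases, later intron peaks in 4.76% ± 1.81 and the 20 exon peaks in 19.8% ± 7.65. Peaks within 20 kb of a listed gene gave 11.6% ± 10.1, and the others 4.22% ± 1.43. Scores under 60 gave 2.69% ± 1.74, and those from 60 to under 100 gave 9.35% ± 8.15.

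The class was less recurrent than promoter peaks of the same width range. Narrow promoter peaks were met again in 55.8% ± 3.05 (wild-type), 56.8% ± 3.36 (mfn2-/-), 62.4% ± 2.23 (vhl-/-) and 14.9% ± 0.456 (HIF1dPA) of cases (SD, n = 3 each). Exon and intron peaks lay below them in 12 of 12 libraries, by a mean of -17.6 points (exact sign-flip test, p = 0.000488, the smallest it allows, adjusted p = 0.00117). With the 474 strongest peaks per library the difference shrank to -4.19 points (exact p = 0.0503). Against narrow intergenic peaks the mean difference was -1.87 points, lower in 10 of 12 libraries (exact p = 0.0205, adjusted p = 0.0231). This small difference turned to 1.35 points (exact p = 0.0723) when peaks in untranslated regions were counted as exon peaks, and was -1.06 points (p = 0.172) without HIF1dPA replicate 3, -1.52 points (p = 0.0518) without HIF1dPA replicate 1 and -1.58 points (p = 0.119) without mfn2-/- replicate 2. Libraries of 1 genotype share regions, so the 12 points are not fully independent.

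**Figure D3:**
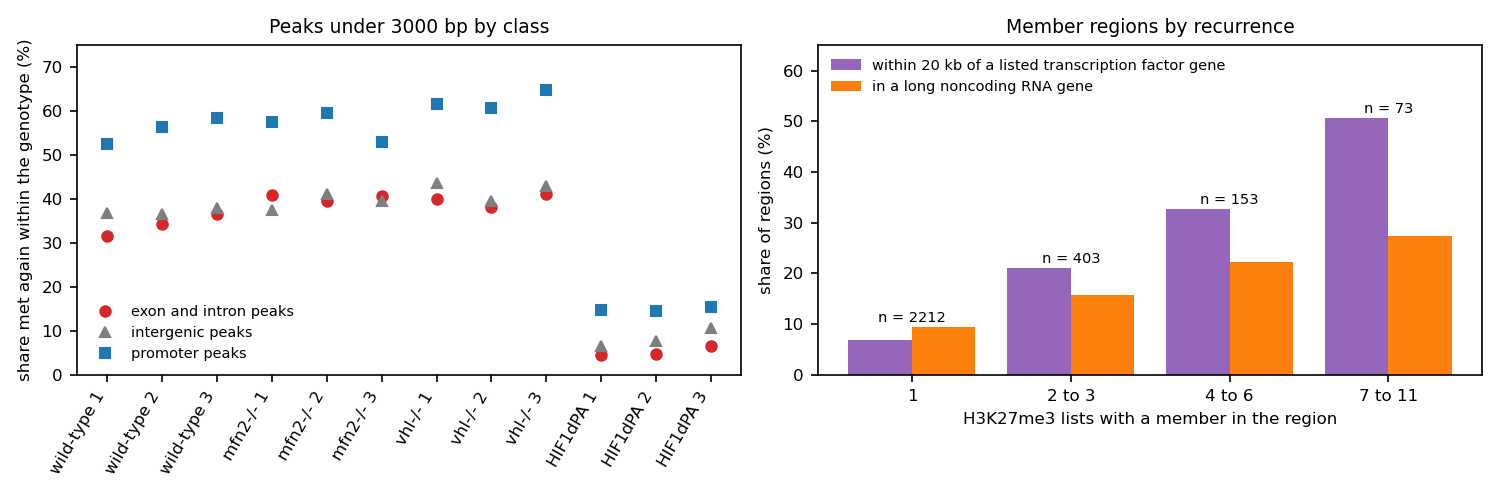
The left panel plots, for each of the 12 libraries, the share in percent of exon and intron, intergenic and promoter peaks under 3000 bp that were met again within the genotype. The right panel plots, for merged member regions grouped by the number of lists with a member, the share in percent within 20 kb of a listed transcription factor gene and the share in long noncoding RNA genes, which rise to 50.7% and 27.4% in the 73 regions of 7 to 11 lists.

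Merging the 4912 peaks where they overlapped gave 2841 regions. Most were seen once: 2212 regions (77.9%) had a member in a single list, 403 in 2 to 3, 153 in 4 to 6 and 73 in 7 to 11 lists. Regions seen more often lay closer to developmental genes. A gene of the developmental transcription factor list was within 20 kb of 6.83% of the single-list regions, 21.1% of those in 2 to 3 lists, 32.7% of those in 4 to 6 and 50.7% of those in 7 to 11. Long noncoding RNA genes, as matched in RefSeq, were the hosts of 9.40, 15.6, 22.2 and 27.4% of the same groups. Merged length grows with the number of peaks joined, from a median of 620 bp to 3658 bp, and its part in these shares was not tested. In each genotype few regions were in all 3 lists: 63 of 1325 for wild-type, 58 of 771 for mfn2-/-, 82 of 1298 for vhl-/- and 2 of 241 for HIF1dPA.

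Averaged over all pairs, the base pairs covered were more alike within than between genotypes, but not for each pair of genotypes. The Jaccard index, shared over total base pairs of a pair of lists, averaged 0.0821 within and 0.0518 between genotypes, a difference of 0.0303 (one-sided exact permutation p = 6.49e-05, the smallest possible, adjusted p = 0.000584). The within value was 0.0872 for wild-type, 0.112 for mfn2-/-, 0.109 for vhl-/- and 0.0201 for HIF1dPA. Without the HIF1dPA libraries the means were 0.103 within and 0.0880 between, a difference of 0.0147 (one-sided exact permutation p = 0.00357). Pairs of a wild-type and a vhl-/- list had a mean of 0.0890, slightly above that of wild-type pairs, and wild-type and mfn2-/- pairs 0.0820, below it. The mfn2-/- and vhl-/- pairs, at 0.0929, lay below both of their within values. Pairs of an mfn2-/- and a HIF1dPA list, at 0.0196, came close to the HIF1dPA pairs.

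The most recurrent regions were then examined by name, with the score of the strongest peak that overlapped it in each list, whatever the class or width of that peak. Most held regulators of embryonic patterning or noncoding genes beside them. Gata4, a zinc finger regulator of heart and gut endoderm, had peaks in the sole intron of an annotated transcript (chr14:63260547-63267166) in 11 lists. The scores were 308, 433 and 137 in wild-type, 193, 197 and 214 in mfn2-/-, 187, 296 and 223 in vhl-/- and 90.9 and 83.3 in HIF1dPA 1 and 3. The 433 of wild-type 2 belonged to a peak over the width limit. HIF1dPA scores were below all others, and HIF1dPA 2 had none. Intron 1 of Lhx4, a LIM homeobox gene of pituitary and motor neuron development (chr1:155731534-155738994), had a peak of any class in 11 lists and a member in 10, from 77.3 to 330 in wild-type, 131 to 272 in mfn2-/-, 151 to 365 in vhl-/- and 62.4 and 89.0 in HIF1dPA 2 and 3.

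Other such regions lay in intron 3 of Prdm13, a neural zinc finger gene (chr4:21678934-21682752), intron 2 of Gata6, a relative of Gata4, intron 4 of Pax9, a regulator of tooth and vertebral development (chr12:56700820-56704477), and intron 1 of Alx4, a craniofacial and limb homeobox gene (chr2:93645646-93649479), each with a member in 10 lists. Noncoding or unmatched hosts completed the set. Hdnr intron 3 (chr8:57335405-57340810) lay 10888 bp from Hand2, a heart and limb regulator, and was in 10 lists, with scores of 121 to 167 in wild-type, 66.7 to 126 in mfn2-/-, 147 to 227 in vhl-/- and 53.0 in HIF1dPA 1. A region assigned to Gm20649 (chr9:74852064-74856215), over an exon of a transcript of another gene, lay 5706 bp from Onecut1 and was in 10 lists. The intron of 4930557F10Rik (chr13:23305650-23310321) had a member in 10 and no listed transcription factor gene within 4 Mb.

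Chl1 was of another kind. It encodes a neural cell adhesion molecule. A region over exon 5 of 27 (chr6:103648545-103649800) had a member in 11 lists and no transcription factor of the list within 4 Mb. The scores were 121, 119 and 112 in wild-type, 182, 259 and 210 in mfn2-/-, 105 and 141 in vhl-/- 2 and 3, and 187, 91.0 and 115 in HIF1dPA. It was the strongest exon or intron peak of each HIF1dPA list, at rank 5 of the whole list in HIF1dPA 1, and vhl-/- 1 was the sole list without it. H3K9me3, the mark of constitutive heterochromatin, had a peak there in all 12 lists, with scores of 176 to 872. The same held for the other region in all 3 HIF1dPA lists, intron 19 of 2210408I21Rik (chr13:77438447-77439533). Its H3K27me3 scores were 50.3 to 57.0 in wild-type, 58.6 to 105 in mfn2-/- and 56.9 to 87.8 in HIF1dPA, with no peak in vhl-/-, and its H3K9me3 scores 194 to 504 in 12 of 12 lists.

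Overlap with H3K9me3 was otherwise rare. Of exon and intron peaks, 0.317, 0.524 and 0.554% overlapped an H3K9me3 peak of their own genotype in the wild-type libraries. Among mfn2-/- libraries the shares were 0.539, 0.872 and 0.743%, among vhl-/- libraries 0.485, 0.795 and 0.547%, and among HIF1dPA libraries 2.27, 3.45 and 3.90%. The genotypes differed (exact p = 0.00435, adjusted p = 0.00783), with all HIF1dPA lists above the 9 others. The HIF1dPA shares rested on 8 overlapping peaks of 252, which included the 6 at Chl1 and 2210408I21Rik. The number of overlapping peaks was similar in the other genotypes, with 8 of 1745 in wild-type, 8 of 1119 in mfn2-/- and 11 of 1796 in vhl-/-. Chl1 was among the overlapping genes in every genotype. With equal numbers of strongest peaks the exact test did not pass (p = 0.124), and strong peaks of the other genotypes overlapped H3K9me3 at 0 to 3.64%. The 17 member regions that touched an H3K9me3 peak of any list were 0.598% of all regions.

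To ask which regions separated a mutant from wild-type, all autosomal H3K27me3 peaks of the 6 libraries were merged, and regions with a peak in all 3 lists of one genotype and none of the other were counted. Against mfn2-/-, 6 of 1884 regions with an exon or intron member were in wild-type only (0.318%), next to 0.686% of all 9473 regions, and 3 in mfn2-/- only (0.159%, next to 0.264%). Against vhl-/-, 7 of 2286 were in wild-type only (0.306%, next to 0.299%) and 10 in vhl-/- only (0.437%, next to 0.597%). Against HIF1dPA, 54 of 1592 were in wild-type only (3.39%, next to 4.59%) and 0 in HIF1dPA only, as in the background of 0% of all 8175 regions. In every comparison the share among exon and intron regions was close to or under that of all regions. The 3 comparisons share the wild-type lists.

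The strongest separating region lay in Gusb, the gene of lysosomal beta-glucuronidase. A peak over exon 9 of 12 (chr5:129994083-129996789) had scores of 994, 848 and 853 in the wild-type lists, rank 2 in each, and widths of 2298 to 2543 bp. No mutant list of any genotype had a peak there, and no H3K9me3 list did. Another region absent from all mutant lists was intron 1 of Ryr3, which encodes a ryanodine receptor calcium release channel (chr2:113174246-113176706), with scores of 221, 405 and 131 in wild-type and no peak in the 9 mutant lists. Intron 8 of Nr2e1, a nuclear receptor of neural stem cells (chr10:42564639-42565624), had 84.4, 100 and 53.2 in wild-type and no peak elsewhere. Other regions were absent from some mutants only. A region at exon 24 and intron 24 of Shank1 had 50.4, 70.9 and 64.2 in wild-type and no peak in mfn2-/- lists. It had 53.4 in vhl-/- 1 and 65.4 in HIF1dPA 1. A region over an exon and an intron of different Hmga2 transcripts had 51.3, 74.5 and 58.4 in wild-type and no peak in vhl-/- lists. Its score in mfn2-/- 3 was 52.7.

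Regions in a mutant only were weaker than the leading wild-type regions. In mfn2-/-, 2 regions in intron 1 of Tcte2 had scores of 51.4 to 98.0, and both also had H3K9me3 peaks, in 6 and 7 of the 12 lists. One of them had a peak in vhl-/- 1 and HIF1dPA 2 as well. The third was exon 8 of the noncoding Foxl2os (52.2 to 56.6), 5799 bp from Foxl2, the ovarian forkhead gene. In vhl-/-, intron 1 of Onecut2, a neural and liver homeobox gene, scored 75.6 to 96.1 in all 3 lists (and 56.4 and 70.9 in 2 mfn2-/- lists), exon 9 of Sptbn4, a spectrin of axon initial segments, 70.3 to 110, and exon 15 of B4galnt4, a glycosyltransferase gene, 53.6 to 136. A region at the noncoding Gm27199, 6610 bp from Lhx5, scored 53.1 to 129. Sptbn4 also had another region, over exons 5 and 6 (chr7:27370889-27373055), with peaks in all 3 wild-type lists and no HIF1dPA list.

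Of the 54 regions of wild-type and not HIF1dPA, a top rank was that of Six3os1 exon 3, 5246 bp from the eye and forebrain gene Six3, with 166 to 214 in wild-type, 80.0 to 136 in mfn2-/- and 62.3 to 196 in vhl-/- lists. It was thus in all 9 lists of the other genotypes. Intron 1 of Cdkn2a, the cell cycle inhibitor locus of p16 and p19Arf (chr4:89285466-89291639), was in the same 9 lists, with 101 to 255 in wild-type, 62.1 to 134 in mfn2-/- and 146 to 226 in vhl-/-, as was Mir9-3hg, the host of a neural miRNA, with 97.0 to 108, 93.0 to 251 and 79.3 to 153. Tbx20 intron 3, of a heart T-box gene, was in these 9 and also, at 52.2, in HIF1dPA 2.

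**Figure D4:**
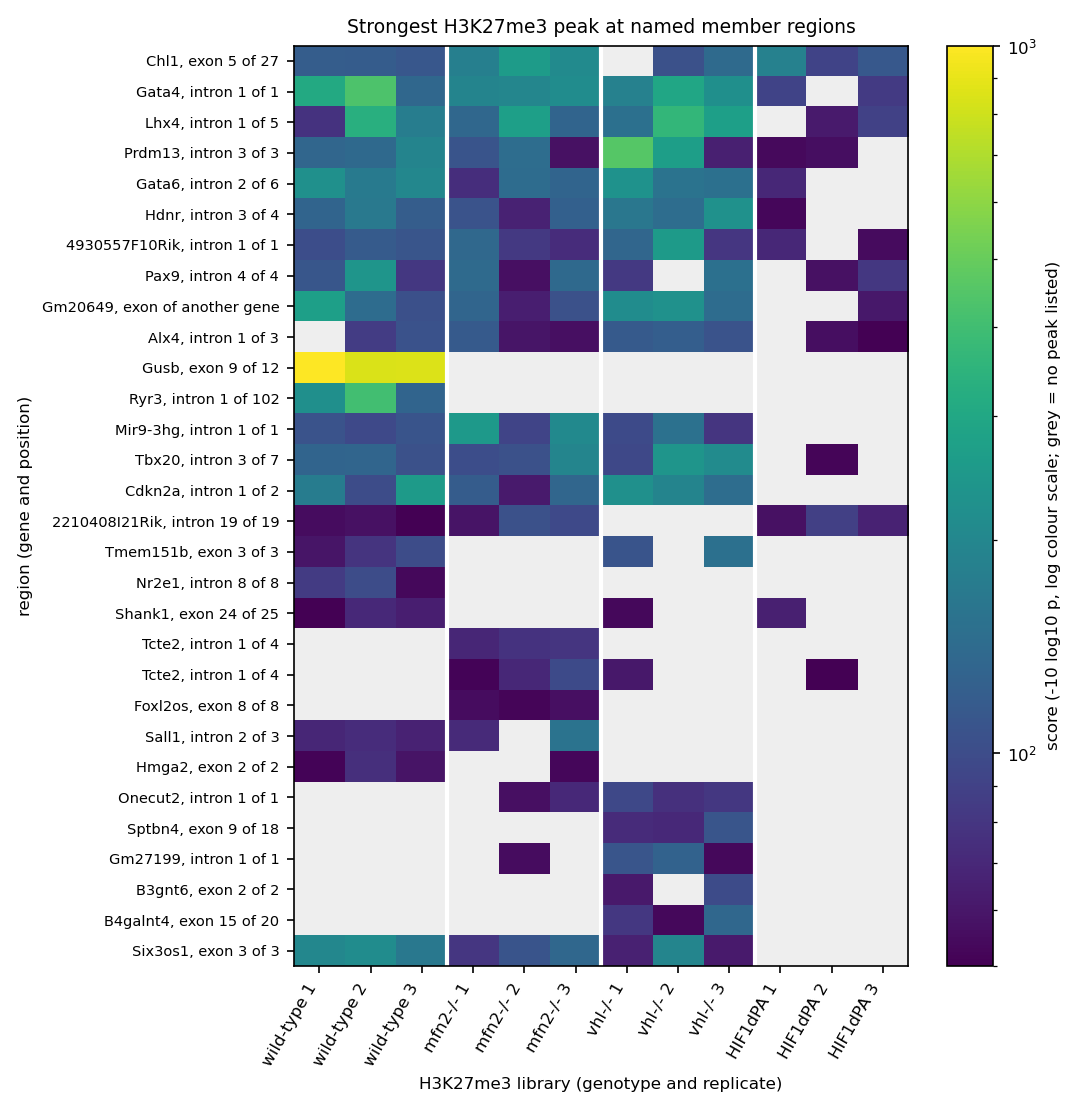
Rows are named member regions (gene and exon or intron number), columns the 12 H3K27me3 libraries, and colour the score of the strongest peak overlapping the region on a log scale from 50 to 1000, with grey for no listed peak. Gusb and Ryr3 are filled in the wild-type columns alone, Chl1 in all but vhl-/- 1, and 2210408I21Rik in all but the vhl-/- columns.

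Some genes held many separate regions. Skap1, an adaptor of T cell signalling, had 52 regions and 114 peaks over 210 kb of chromosome 11, ending 107 kb from Hoxb1 at the nearest. The lists held 14, 16 and 10 in wild-type, 9, 8 and 12 in mfn2-/-, 12, 15 and 14 in vhl-/- and 0, 2 and 2 in HIF1dPA, with scores of 50.1 to 167 and 31 regions seen once. Galnt2l, by the symbol in the lists, had 48 regions and 87 peaks, from 4 to 16 per list outside HIF1dPA. These were spread over 3287 kb of chromosome 8, the nearest by Foxf1 and Foxl1, and the symbol was not matched in RefSeq. Cdh22, a cadherin, and Fgfr2, a receptor for fibroblast growth factors, had 20 regions each, with 36 and 28 peaks. The Fgfr2 regions spanned 1711 kb, next to a RefSeq gene length of 104 kb. Cdh22 peaks were in all 9 lists outside HIF1dPA, at 1 to 7 per list and a median score of 58.2, and in none of HIF1dPA. The HIF1dPA lists held 77 to 88 exon and intron peaks in all, compared with 344 to 631 in the other lists. By contrast 821 of 1381 genes had 1 region.

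By gene function, developmental transcription factors were the largest group in number of peaks. Genes of this list took 562 of the 4912 peaks (11.4%), over 63 genes, but 17.95% of all autosomal H3K27me3 peaks, so they were less frequent here than in the lists as a whole. The mean was 9.90% ± 0.559 for wild-type, 15.6% ± 0.925 for mfn2-/-, 10.8% ± 0.668 for vhl-/- and 8.75% ± 1.79 for HIF1dPA (SD, n = 3). The share was highest in mfn2-/- also when peaks within 20 kb of such a gene were counted (31.2% ± 2.33, against 20.3% ± 1.11 in wild-type). The same order was seen in other classes, without a test. Pooled over libraries, narrow promoter peaks gave 32.5% in mfn2-/- and 24.1% in wild-type, and narrow intergenic peaks 28.0% and 21.1%. The members in most lists were Lhx4 (12), Gata4 and Pax9 (11), and Alx4, Gata6, Sall1 and Tfap2b (10).

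Other groups held fewer peaks. Ion channel and neurotransmitter receptor genes had 152 peaks over 64 genes (3.09%, against 2.71% of all autosomal peaks), adhesion and axon guidance genes 128 over 43 genes (2.61%, against 1.58%), and signalling genes 108 over 25 genes (2.20%, against 1.70%). Among channel genes Ryr3 reached the highest score (405), followed by the sodium channel gene Scn8a (146, in 6 lists), while Asic2 and Grin1, a proton-gated channel and an NMDA receptor subunit, were in 6 lists each at scores up to 68.3 and 85.1. Extracellular matrix genes had 28 peaks over 13 genes (0.570%, against 0.439%), and C2H2 zinc finger genes 14 over 6 (0.285%, against 0.529%). A peak was found in 23.4% of channel, 21.9% of adhesion and 19.4% of signalling genes on these lists. For extracellular matrix and zinc finger genes it was 10.8 and 1.33%. The developmental transcription factor list gave 24.2%, and all autosomal protein-coding RefSeq genes 5.59%. The part of gene length in these shares was not tested.

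Muscle genes were few in number among the hosts, at shares that are read against the 5.59% of all autosomal protein-coding RefSeq genes that had a peak of the class. Of 22 muscle stem cell and myogenic genes in RefSeq, 3 had peaks (13.6%), which took 0.753% of the class and 0.416% of all autosomal peaks. Pax3, a paired box regulator of embryonic muscle precursors, had 32 peaks in 13 regions and 9 lists (3 wild-type, 3 mfn2-/-, 2 vhl-/- and 1 HIF1dPA), most in intron 4 of 8. Its most recurrent region (chr1:78185859-78188232) was in 7 lists, with a score of 131 in 1 wild-type list, 65.8 to 130 in 3 mfn2-/- lists, 83.2 and 86.8 in 2 vhl-/- lists and 51.5 in 1 HIF1dPA list. Pax7, the muscle stem cell regulator, had 3 peaks in 2 lists (59.5 to 74.1), and Notch3, a receptor of satellite cell quiescence, 2 peaks in 2 lists (61.7 to 88.4). Of 96 sarcomere and excitation-contraction genes 5 had peaks (5.21%, close to all genes), 12 in all (0.244% of the class, against 0.129% of all autosomal peaks). Ryr3 and Sgcd, a dystrophin complex sarcoglycan, were in 4 lists each, Sgcd at 50.9 to 56.3. Myh8, the neonatal myosin gene, had 1 peak of the class, with a score of 168, in 1 mfn2-/- list. Peaks of other classes or widths at Myh8 are outside this count. The paper reports H3K27me3 inside Myh8 in wild-type myofibers, over several introns, and less of it in mfn2-/- myofibers. That signal was not tested here, and the count of listed peaks in this class does not measure it.

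Of 42 hypoxia and HIF target genes 2 had exon or intron peaks (4.76%, close to the 5.59% of all genes), with 0.102% of the class and 0.0549% of all autosomal peaks. They were Nos2, inducible nitric oxide synthase, in 3 lists (50.8 to 115) and Slc2a3, a glucose transporter, in 2 (50.6 and 55.7). Neither was in HIF1dPA, whose lists held 252 of the 4912 peaks of the class. Of 43 genes of the H3K27 and H3K9 methylation machinery, the H3K9 demethylase gene Kdm4d had 3 peaks in 3 lists (51.9 to 60.9), in 1 list each of wild-type, mfn2-/- and vhl-/-, and was the sole host (0.0611% of the class, against 0.326% of all autosomal peaks). Mitochondrial dynamics genes had 1 peak (0.0204%, against 0.0129%). Among markers of other cell types, those of fibroblasts and fibro-adipogenic cells had 0 peaks (0.0775% of all autosomal peaks), endothelial markers 6 (0.122%, against 0.261%), immune markers 3 (0.0611%, against 0.0678%) and Schwann and neural markers 14 (0.285%, against 0.119%), of which Rbfox3 held 12 in 8 lists. A peak of a silencing mark gives no measure of how many such cells were present.

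Peaks often lay in groups. In wild-type lists 45.4% ± 2.56 of exon and intron peaks had another autosomal peak of the same list within 5 kb, and 23.0% ± 1.58 had a promoter peak there (SD, n = 3). The shares were 51.5% ± 5.10 and 29.0% ± 3.28 in mfn2-/-, 50.8% ± 0.498 and 29.4% ± 1.13 in vhl-/-, and 4.35% ± 1.23 and 2.44% ± 1.39 in HIF1dPA lists, which held fewer peaks. Narrow intergenic peaks of wild-type lists had a neighbour of any class as often (45.9% ± 1.76) and a promoter peak less often (15.9% ± 0.397).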

How the data were processed

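ChIP-seq peak lists were analysed as deposited, 1 list per library (n = 3 per genotype and mark). Per the labels and submitters' processing notes, reads were handled with BWA 0.7.5, MACS and deepTools 3.5.0 on mm10. The deposited score is -10 × log10 of the caller's p-value, and start and end are positions, with no counts or depth. Promoter classes of the authors reach 3 kb. The wild-type input was not used here.

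Members and gene lists were chosen with earlier results of these data known. Named genes were the 10 most recurrent regions, up to 5 separating regions per comparison and direction, the 3 strongest present in all 3 lists of a genotype, members of 4 gene lists, peaks next to the width limit and the 5 genes with most regions. Scn8a, Asic2, Grin1, Rbfox3, Myh8 and the start-site genes were chosen after their values were seen. A region that the rule named is not reported here. Genotypes were compared by exact permutation tests over libraries (two-sided unless stated), with Benjamini-Hochberg adjustment over 9 tests, and class differences by exact sign-flip tests. Host genes were matched by symbol or synonym to RefSeq (1316 of 1381), whose GRCm38.p6 coordinates are those of mm10. Base composition of the peaks was not analysed here. Scripts were tested on simulated data. Software was matplotlib 3.10.9, pandas 2.3.3, numpy 2.4.6 and Python 3.11.15.

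Same-numbered libraries did not deviate together (correlations of -0.0319 to 0.0464 over 18 pairs). Alternatives were other score, width, class, gene, overlap and joining rules, equal list lengths, dropping H3K9me3 overlaps, a replicate block and leaving out each library.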

Additional observations from a re-analysis of the deposited data

Results flagged for a closer look

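The share of exon and intron peaks met again within the genotype moved in opposite directions in the mutants. All 3 mfn2-/- lists lay above every wild-type list, by a mean of 6.25 points, as did all 3 vhl-/- lists, by 5.59 points, whereas all 3 HIF1dPA lists lay below, with a mean difference of -28.9 points. The difference between these mutant effects was not tested. With equal numbers of strongest peaks the mfn2-/- and vhl-/- lists no longer lay apart from wild-type (wild-type 1 at 52.4%, above mfn2-/- 2 at 49.1% and vhl-/- 1 at 51.4%), with differences of 10.2 and 7.50 points (exact permutation p = 0.2 each) and of -41.2 points for HIF1dPA (exact p = 0.1).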

How the results depend on the processing

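With the replicate block, p was 0.00521 for the number of members, 0.0503 for their share of autosomal peaks, 0.0312 for the exon share, 0.0486 for the intron 1 share, 0.00347 for recurrence and for H3K9me3 overlap, and 0.00174 for the Jaccard difference of 0.0303, which changed no call at these unadjusted values. Adjusted over the 9 tests, an alternative chosen after seeing the data, the blocked intron 1 p was 0.0503, over the threshold, and the other calls held. With equal numbers of strongest peaks, ratios to wild-type were 1.04 (mfn2-/-), 0.791 (vhl-/-) and 1.75 (HIF1dPA), the mfn2-/- share difference was 0.422 points, p was 0.000649 for the share and 0.124 for H3K9me3 overlap, and recurrence differed by -4.19 points from promoter and -1.42 from intergenic peaks. Separating regions were then 2 (wild-type) and 1 (mutant) in the mfn2-/- comparison, 2 and 1 in the vhl-/- one, and 6 and 1 in the HIF1dPA one. At a score of 100 they were 1 in mfn2-/- only, 3 and 2 for vhl-/- and 14 in wild-type and not HIF1dPA, the share p was 0.0011, and tests of number, exon and intron 1 shares, recurrence and H3K9me3 overlap could not be run because a HIF1dPA list kept no member. Under a width of 1500 bp the share p was 0.0261 and the intergenic difference -1.13 points, which was 1.35 with UTR classes and -0.00422 with joined peaks (HIF1dPA ratio 0.171). Without H3K9me3 overlaps 1 region was in mfn2-/- only. Without HIF1dPA, also chosen after seeing the data, the Jaccard difference was 0.0147. The causes were not tested.

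Without 1 library, p ranged from 0.000195 to 0.000649 (number), 0.00143 to 0.162 (share, the lowest without HIF1dPA replicate 3), 0.00747 to 0.0181 (exon), 0.0151 to 0.0303 (intron 1), 6.49e-05 to 0.000455 (recurrence) and 0.00149 to 0.00974 (H3K9me3). The Jaccard difference ranged from 0.0267 to 0.0359, the promoter difference from -17.7 to -16.3, the intergenic one from -2.54 to -1.06, and ratios from 0.615 to 0.668 (mfn2-/-), 0.995 to 1.07 (vhl-/-) and 0.140 to 0.151 (HIF1dPA). Recurrence minus wild-type ranged from -7.63 to 18.1 points (mfn2-/-) and -7.47 to 17.4 (vhl-/-), because a genotype that loses a list has fewer lists to be met in. For the same reason separating counts, wild-type then mutant, rose to 6 to 39 and 3 to 13 (mfn2-/-), 7 to 30 and 10 to 38 (vhl-/-) and 54 to 109 and 0 to 1 (HIF1dPA).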
